A study of Mus musculus with 8 samples.

Results

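The genes described here encode the CatSper calcium channel and the sperm potassium channel KSper. They were taken as the rows whose Ensembl identifiers map to 10 symbols of sperm ion channel subunits, and all 10 were found among the 24988 genes of the table. Catsper1, Catsper2, Catsper3 and Catsper4 encode the pore-forming subunits of CatSper. Catsperb, Catsperd, Catsperg1 and Catsperg2 encode auxiliary subunits with large extracellular parts. Kcnu1 encodes Slo3, the pore of KSper, and Lrrc52 encodes its leucine-rich repeat partner.

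RNA was sequenced from adult mouse testis in 4 libraries labelled Kpna2 knockout (genotype Kpna2-/-) and 4 libraries labelled wild type. The product of Kpna2 is an importin alpha, which brings cargo proteins to the nuclear import machinery, and the comparison asked which testis genes differ when it is missing. The labels give no strain, allele design or exact age, and they do not say that the 4 libraries of a group came from separate animals, so p-values measure only the spread between libraries. The tissue is whole testis, so for every gene fewer cells of a type and less RNA per cell cannot be told apart.

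CatSper lies in linear nanodomains along the principal piece of the sperm tail, opens when the cell interior turns alkaline, and lets in the calcium that drives hyperactivated swimming. KSper opens in the same ionic conditions in mouse sperm and makes the membrane potential more negative during capacitation. Both channels are germ-cell specific, their transcripts are made in late spermatocytes and spermatids, and male mice that lack a CatSper pore subunit or Slo3 are infertile.

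Gene-assigned reads numbered from 31133443 to 37797812 in a library. Levels are given in CPM, reads scaled by the library sizes that the authors used. The highest count of a listed channel gene in a library was 11720 reads (Catsper2) and the lowest was 790 (Lrrc52), so none was near the floor of 3 reads, which corresponds to between 0.0786 and 0.0968 CPM. Kpna2, the gene named as removed, had more reads under the knockout label, not fewer. Knockout libraries 1 to 4 had 15.3, 20.2, 19.4 and 21.7 CPM, against 13.97, 15.1, 14.04 and 12.4 CPM in the wild-type libraries. Its log2 fold change was 0.44 ± 0.10 (SE; limma, Benjamini-Hochberg adjusted p = 0.0079), and the groups did not overlap (exact two-sided permutation test, p = 0.029, the smallest that 4 against 4 libraries allow). Every direction given below is therefore between the libraries labelled knockout and those labelled wild type, and nothing in the channel genes' own values tests that label. Of the genes of the 9 marker lists of adult testis cell types found in the table, none was at 0 in all 8 libraries. That was fixed in advance, since every gene of the table had at least 30 reads in total.

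The gene pair Catsperg1 and Catsperg2 sets the limit of what the counts can tell apart, and so 2 stretches of it are shown. Both genes lie on the minus strand of chromosome 7 (GRCm38), Catsperg1 at chr7:29181321-29214035 and Catsperg2 at chr7:29697219-29727032. Their longest coding sequences in GENCODE M21 have 3453 and 3435 bases, and the aligned bases differ at 122 positions, an identity of 96.4%. The first pair of lines gives the 90 coding bases (1660 to 1749, counted from the start codon) in which the copies differ most, with the 18 differing bases in capitals, and reads from there can be assigned to 1 gene.
Catsperg1: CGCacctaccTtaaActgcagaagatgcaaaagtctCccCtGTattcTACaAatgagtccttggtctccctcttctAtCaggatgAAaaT
Catsperg2: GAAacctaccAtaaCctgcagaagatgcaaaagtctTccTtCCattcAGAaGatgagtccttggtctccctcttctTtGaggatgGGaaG
The next lines give coding bases 124 to 213, which hold 0 differences, so a read inside them fits both genes equally.
Catsperg1: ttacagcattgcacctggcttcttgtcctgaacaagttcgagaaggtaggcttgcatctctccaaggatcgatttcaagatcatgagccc
Catsperg2: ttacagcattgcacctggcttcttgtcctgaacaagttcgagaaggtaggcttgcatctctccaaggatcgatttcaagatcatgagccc
Over all annotated transcripts, 43% of the distinct 50-base windows of Catsperg1 also occur in Catsperg2, and 44.1% of those of Catsperg2 occur in Catsperg1. At 100 bases the shares are 23.7% and 24.8%, and at 150 bases they are 13.1% and 14%. No source used here states how reads that match both copies were counted, so the level of each copy is uncertain. If such reads were left out, their sum is too low as well.

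None of the 10 channel genes was called different between the libraries labelled knockout and the wild-type libraries. Limma called 0 of 10 at an adjusted p under 0.05, where it called 16.9% of the 22027 genes tested. The edgeR quasi-likelihood test (17% of all genes) and the DESeq2 Wald test (18.1% of all genes) on the recovered reads also called 0 of 10. At an unadjusted p under 0.05 limma passed 1 of 10, Lrrc52, against 30.2% of all genes. In all 10 the values of the 4 knockout and the 4 wild-type libraries overlapped, while 20.9% of all genes had groups that did not overlap. The estimates were positive for 5 genes and negative for 5, and their median log2 fold change, -0.01, was the same as that of all genes tested (-0.01). The median absolute log2 fold change was 0.043 for the 10 genes, 0.128 for all genes tested and 0.078 for the 5886 genes whose mean CPM lies between the lowest and the highest of the 10. Of those 5886 genes, 15.8% were called. Each gene had its own 95% interval. The lowest bound was that of Lrrc52 (-19.6% to -0.355%, knockout relative to wild type), the highest was that of Catsper3 (-6.66% to 16.6%), and the intervals of 9 of the 10 genes included 0.

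**Figure D1:**
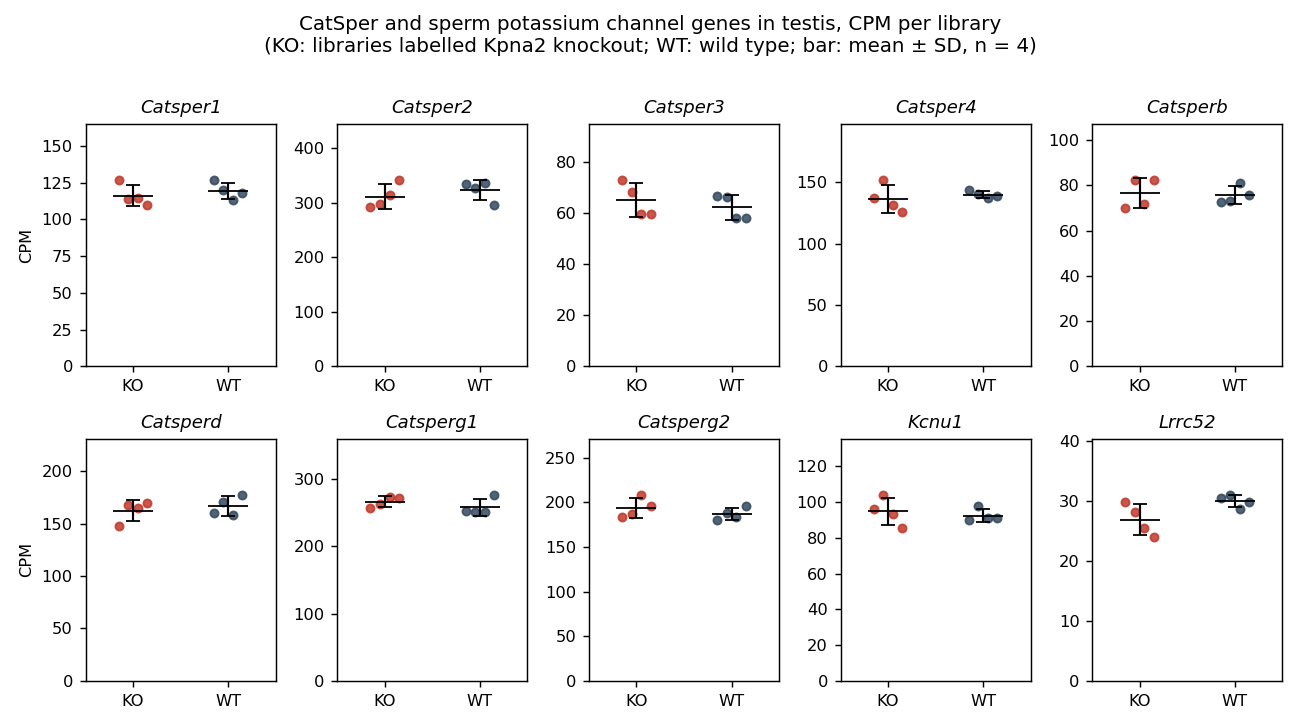
CPM of each of the 10 channel genes (vertical axes, from 0) in the 4 libraries labelled Kpna2 knockout (KO, left in each panel) and the 4 wild-type libraries (WT, right), 1 point per library, with bars for mean ± SD. The points of the groups overlap in all 10 panels, and the Lrrc52 panel has the largest gap relative to its level, with means of 26.9 CPM in KO and 30 CPM in WT.

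Catsper1, the pore subunit whose loss was first shown to make male mice infertile (chr19:5335741-5344280, plus strand), was measured at 127, 114, 115 and 109.7 CPM in knockout libraries 1 to 4, against 127, 119.9, 113 and 118 CPM in wild-type libraries 1 to 4. Library 1 was the highest of both groups, and the lowest value was that of knockout library 4. Means were 116 ± 7.30 CPM in the knockout libraries and 119.5 ± 5.58 CPM in the wild-type libraries (SD, n = 4 each, here and below), and the log2 fold change was -0.04 ± 0.06 (SE; limma adjusted p = 0.67), with a 95% interval of -10.4% to 5.53%. Catsper2 (chr2:121392631-121413792, minus strand) had the most reads of the 10, with 291, 297, 314 and 341 CPM in the knockout libraries and 335, 327, 336 and 296 CPM in the wild-type libraries. The highest value of all was that of knockout library 4 and the lowest that of knockout library 1, so the knockout libraries spanned the wild-type range. The log2 fold change of Catsper2 was -0.06 ± 0.06 (limma adjusted p = 0.55).

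Catsper3 (chr13:55784568-55808998, plus strand) stood at 72.9, 68.1, 59.8 and 59.8 CPM in the knockout libraries, against 66.8, 66.4, 58.1 and 57.99 CPM in the wild-type libraries. Within both groups libraries 1 and 2 were high and libraries 3 and 4 low, and that gap was wider than the difference between the means, 65.1 ± 6.5 CPM in knockout and 62.3 ± 4.93 CPM in wild-type libraries. The round spermatid marker list, 21 measured genes, followed the same split. Its mean log2 deviation from the wild-type mean was 0.05, 0.10, -0.05 and -0.02 in the knockout libraries and 0.04, 0.04, -0.05 and -0.03 in the wild-type libraries, and its part in the Catsper3 values was not tested. For Catsper4 (chr4:134211970-134227383, minus strand) the knockout libraries gave 137, 151.9, 131 and 126 CPM and the wild-type libraries 144, 140.2, 137 and 139 CPM. The knockout values lay on both sides of all 4 wild-type values, with an SD of 11.3 CPM in the knockout and 2.68 CPM in the wild-type libraries. The log2 fold changes were 0.06 ± 0.07 for Catsper3 and -0.04 ± 0.06 for Catsper4 (limma adjusted p = 0.63 and 0.69).

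Summed over the 4 pore genes, the libraries labelled knockout had 629 ± 6.97 CPM and the wild-type libraries 645 ± 25.4 CPM. The channel assembles from 1 of each pore subunit, and the ratios of the other pore transcripts to Catsper1 were compared within libraries. Catsper2 over Catsper1 was 2.69 ± 0.336 in knockout and 2.71 ± 0.191 in wild-type libraries (exact two-sided permutation test, p = 0.886). The ratio of Catsper3 to Catsper1 was 0.56 ± 0.034 in knockout and 0.521 ± 0.026 in wild-type libraries (exact p = 0.171), and that of Catsper4 to Catsper1 was 1.18 ± 0.109 in knockout and 1.17 ± 0.032 in wild-type libraries (exact p = 1). After Benjamini-Hochberg adjustment over the 4 ratios tested, Kcnu1 to Lrrc52 included, these p-values were 1, 0.343 and 1.

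The auxiliary subunits sit over the pore like a canopy outside the cell, and in mouse the loss of Catsperd removes the whole channel from sperm. Catsperb (chr12:101404653-101626009, plus strand) was measured at 70.1, 82.3, 71.8 and 82.2 CPM in the knockout libraries, against 72.5, 72.9, 81.2 and 75.6 CPM in the wild-type libraries. The highest and the lowest of its 8 values were both from knockout libraries, and the log2 fold change was 0.02 ± 0.06 (limma adjusted p = 0.89). Catsperd (chr17:56628143-56664456, plus strand) had 148, 168, 165 and 169 CPM in the knockout libraries and 160.0, 171, 158 and 178 CPM in the wild-type libraries. Knockout library 1 was the lowest of the 8, and the log2 fold change was -0.04 ± 0.06 (limma adjusted p = 0.71).

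Catsperg1 was counted at 256, 262, 274 and 271 CPM in the knockout libraries, against 253, 251, 250.2 and 277 CPM in the wild-type libraries. Wild-type library 4 was above all other libraries, while the other wild-type libraries were below all 4 knockout libraries. Catsperg2 stood at 184, 187, 209 and 196 CPM in the knockout libraries and at 181, 188, 183 and 196 CPM in the wild-type libraries. The log2 fold changes were 0.05 ± 0.05 for Catsperg1, 0.05 ± 0.05 for Catsperg2 and 0.05 ± 0.05 for their summed row (limma adjusted p = 0.57, 0.55 and 0.55). Catsperg1 took 58.2%, 58.4%, 56.7% and 58.02% of the sum of the pair in the knockout libraries and 58.3%, 57.2%, 57.7% and 58.5% in the wild-type libraries. The mean shares were 57.9% ± 0.77 in knockout and 57.9% ± 0.604 in wild-type libraries, and they did not differ beyond the spread between libraries (difference -0.093 percentage points, exact two-sided permutation test, p = 0.857). Summed over the 4 auxiliary genes, the level was 699 ± 28.8 CPM in the knockout libraries and 687 ± 26.8 CPM in the wild-type libraries.

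Kcnu1 (chr8:25849623-25937939, plus strand) was measured at 95.95, 104, 93.5 and 85.3 CPM in the knockout libraries, against 90.05, 97.7, 90.9 and 90.9 CPM in the wild-type libraries. Library 2 was the highest of both groups, and the lowest value was that of knockout library 4. Its log2 fold change was 0.03 ± 0.06 (limma adjusted p = 0.76), with a 95% interval of -6.45% to 11.9%. Lrrc52 (chr1:167445669-167466780, minus strand), which shifts the opening of Slo3 into the physiological voltage and pH range, had 29.9, 28.2, 25.5 and 23.98 CPM in the knockout libraries and 30.5, 31.1, 28.6 and 29.9 CPM in the wild-type libraries. Of its 4 knockout values, 3 were below the lowest wild-type value, and knockout library 1 was inside the wild-type range. The means were 26.9 ± 2.65 CPM in knockout and 30 ± 1.03 CPM in wild-type libraries, with a log2 fold change of -0.16 ± 0.07 (SE). Its unadjusted p was 0.044 and its limma adjusted p 0.151, so it was not called, although the 95% interval for 1 gene, -19.6% to -0.355%, did not include 0.

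**Figure D2:**
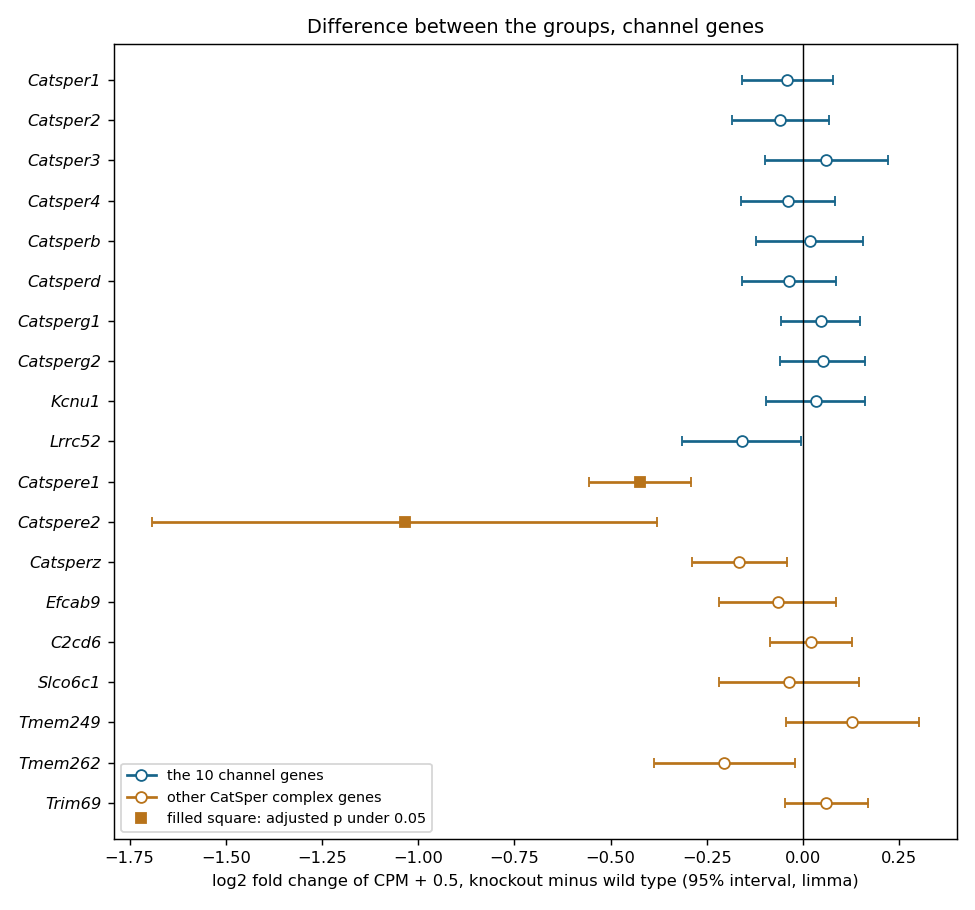
Log2 fold change of CPM + 0.5, libraries labelled knockout minus wild-type libraries, with its 95% interval (limma), for the 10 channel genes in blue and the 9 other CatSper complex genes in orange. Filled squares mark an adjusted p under 0.05: only Catspere1 (-0.42) and Catspere2 (-1.03) have one among the 19 genes drawn.

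The ratio of Kcnu1 to Lrrc52 within a library was 3.21, 3.69, 3.67 and 3.56 in the knockout libraries and 2.96, 3.15, 3.17 and 3.05 in the wild-type libraries. These groups did not overlap, with means of 3.53 ± 0.222 in knockout and 3.08 ± 0.1 in wild-type libraries. The exact two-sided permutation p was 0.029, the smallest that this design allows, and 0.114 after adjustment over the 4 ratios compared. A single difference among 4 ratios cannot pass the threshold with 4 libraries a group, so the ratio is reported as not passing.

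**Figure D3:**
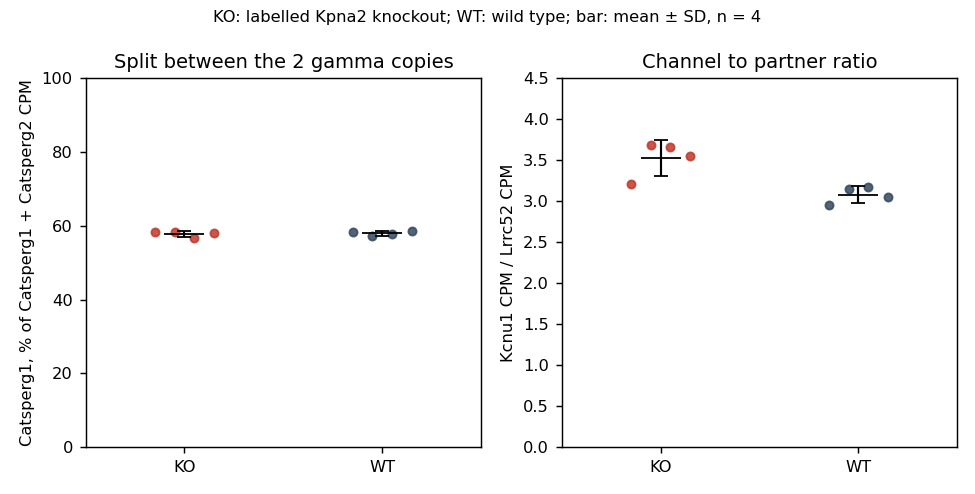
Left, Catsperg1 as a percent of Catsperg1 plus Catsperg2 CPM. Right, the ratio of Kcnu1 to Lrrc52 CPM. Each point is 1 library (KO, labelled Kpna2 knockout, left in each panel; WT, wild type, right) and bars are mean ± SD. The shares lie between 56.7% and 58.5% in both groups, and the ratios are 3.21 to 3.69 in KO against 2.96 to 3.17 in WT.

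The 10 genes did not vary as a block among the libraries labelled knockout. Knockout library 1 held the highest knockout value of 3 genes (Catsper1, Catsper3 and Lrrc52) and the lowest of 5 (Catsper2, Catsperb, Catsperd, Catsperg1 and Catsperg2). Knockout library 4 held the highest knockout value of 2 genes (Catsper2 and Catsperd) and the lowest of 5 (Catsper1, Catsper3, Catsper4, Kcnu1 and Lrrc52). These same libraries were the ends of the knockout range for 20 elongating spermatid markers, whose CPM summed to 30864 in knockout library 1 and 38278 in knockout library 4, against 34242 to 35728 in the wild-type libraries. The part of that in the channel genes was not tested. With each library centred on those markers, limma still called 0 of 10. Over the 10 genes together the libraries labelled knockout summed to between 1412 and 1464 CPM and the wild-type libraries to between 1437 and 1464 CPM, with means of 1449 ± 24.7 CPM in knockout and 1454 ± 11.8 CPM in wild-type libraries.

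The pooled within-group SD on the log2 scale was 0.058 for Catsperg1, the smallest of the 10, and 0.128 for Catsper3, the largest. Its median was 0.089, against 0.083 for the 5886 genes of like level. The rule for genes with a like pattern ranks 11047 genes by the root mean square distance of their centred log2 values from the mean profile of the 10 over 8 libraries. The 3 nearest were Eif4a-ps4 at 0.023, Laptm4a at 0.023 and Katna1 at 0.023, where the 10 genes themselves were between 0.056 (Catsper4) and 0.106 (Lrrc52) from their mean and the median over the ranked genes was 0.107. The mean profile was nearly flat, with a mean log2 deviation from the wild-type mean between -0.04 and 0.03 in every library.

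Levels were compared between genes per length, as CPM per kilobase of merged exons over all 8 libraries. Catsper2 was highest with a mean of 85.8, followed by Catsper4 with 65.8 and Catsper1 with 53.9. Next came Catsper3 with 46.8, Catsperd with 45.8 and Catsperg1 with 37.2. The lower end held Catsperg2 with 27.1, Kcnu1 with 25.03, Lrrc52 with 24.9 and Catsperb with 13.8, so the 10 genes spanned 6.23-fold. The pore genes had the 4 highest means by this measure, with Catsper3 only narrowly above Catsperd. Ranges over the 8 libraries were compared between genes next to each other in this order. They overlapped for Catsper1 and Catsper3, for Catsper3 and Catsperd, for Catsperg2 and Kcnu1, and for Kcnu1 and Lrrc52. The ranges of Catsperg2 (25.7 to 29.7) and Lrrc52 (20.98 to 27.2) overlapped as well. Catsper3 was above Catsperd in 4 of 8 libraries and Kcnu1 above Lrrc52 in 3 of 8, so neither pair has an order. The order depends on the length used. With the longest coding transcript in place of merged exons, Catsper2 (141), Catsper4 (80.1) and, lowest, Catsperb (20.5) kept their places. Catsperg1 moved up to 71.3 and Catsperd to 64.3, both above Catsper1 with 53.9 and Catsper3 with 47.9. Catsperg2, with 48.1, was level with Catsper3, so by this length the pore genes were not the 4 highest.

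**Figure D4:**
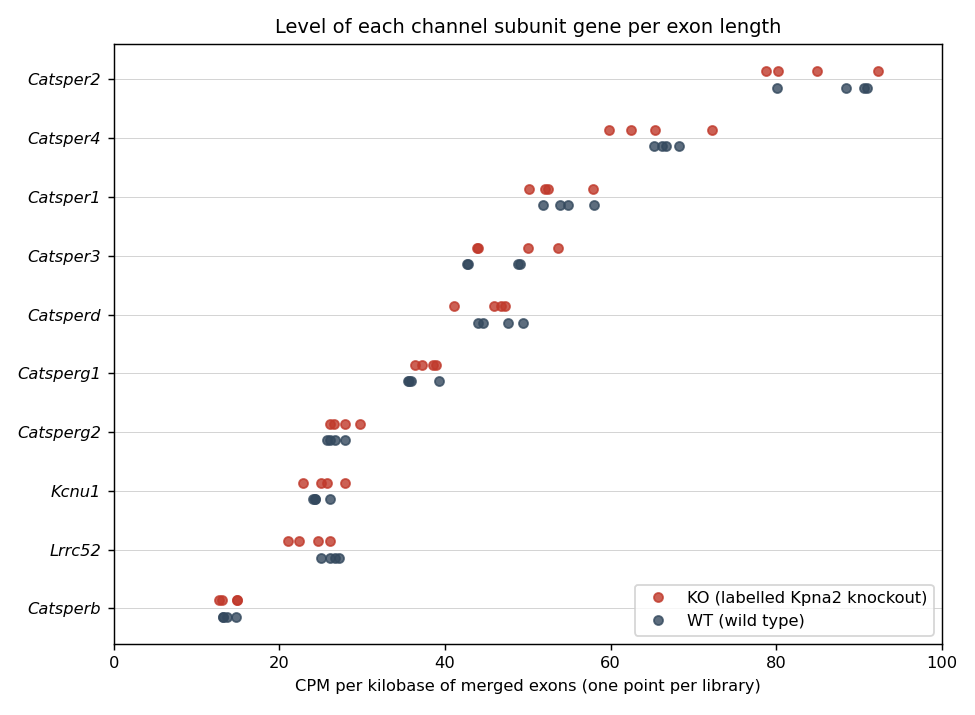
Level of each of the 10 channel genes in CPM per kilobase of merged exons (horizontal axis, from 0), 1 point per library, with libraries labelled knockout above the line of each gene and wild-type libraries below it. The means fall from 85.8 for Catsper2 at the top to 13.8 for Catsperb at the bottom, and the groups overlap at every gene.

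Among the members, exons overlapped another gene's exons only at Catsper2, where 18 bases lie opposite Pdia3, 0.487% of its exon length in GENCODE M21. Whether counting used the strand is not stated in any source used here.

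Of the 9 other genes of the CatSper complex, 2 fell in the libraries labelled knockout, Catspere1 and Catspere2, and 0 rose. Of all genes tested, 8.32% fell and 8.62% rose. Catspere is the epsilon subunit of the canopy beside the beta, gamma and delta subunits, and mouse has a pair of adjacent loci for it on chromosome 1. Catspere1 (chr1:177808550-177962233, plus strand) was measured at 53.7, 54.6, 55.1 and 58.1 CPM in the knockout libraries, against 70.3, 71.1, 73.1 and 84.1 CPM in the wild-type libraries. All 4 knockout values were below all 4 wild-type values. The means were 55.4 ± 1.92 CPM in knockout and 74.7 ± 6.42 CPM in wild-type libraries, a log2 fold change of -0.42 ± 0.06 (SE; limma adjusted p = 0.000322). Catspere1 was called under all 21 alternatives, counting the row in which it was summed with Catspere2. Values of the Sertoli and peritubular myoid marker lists stand beside it. The CPM of 15 Sertoli genes, 4 of which fell, summed to between 1553 and 1787 in the knockout libraries and to between 1768 and 1897 in the wild-type libraries. For 10 peritubular myoid genes, 5 of which fell, the sums were between 436 and 468 in the knockout libraries and between 496 and 586 in the wild-type libraries. The Sertoli sums of the groups overlapped and the myoid sums did not. By mean log2 deviation from the wild-type mean, the groups overlapped in neither list. For the Sertoli list these were -0.31 to -0.11 in knockout and -0.06 to 0.03 in wild-type libraries. For the myoid list they were -0.47 to -0.21 in knockout and -0.19 to 0.09 in wild-type libraries. Knockout library 4 had the lowest sum of both lists and the highest knockout value of Catspere1. Among germ-cell lists, limma called 0 of 20 elongating and 0 of 21 round spermatid genes. It called 2 of 15 pachytene spermatocyte and 2 of 12 spermatogonial genes lower. The round spermatid sums were between 4776 and 5198 in the knockout libraries and between 4753 and 4955 in the wild-type libraries. No gene of these lists was at 0 in all 8 libraries, and the part of the lists in the Catspere1 values was not tested. GENCODE M21 lists Catspere1 as an unprocessed pseudogene, while RefSeq lists it as protein coding.

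Catspere2 (chr1:177983423-178172704, plus strand) had 29.8, 57.5, 54.7 and 14.6 CPM in the knockout libraries and 70.3, 70.2, 66.6 and 75.97 CPM in the wild-type libraries. The knockout libraries were all lower and split among themselves, with libraries 1 and 4 far below libraries 2 and 3. The log2 fold change was -1.03 ± 0.31 (limma adjusted p = 0.0321). It passed in 13 of 21 alternatives, counting as a pass the row in which Catspere2 was summed with Catspere1, which was itself called. The edgeR (adjusted p = 0.238) and DESeq2 (adjusted p = 0.163) tests did not call Catspere2. Without knockout libraries 1 and 4 together, a choice made after these values were seen, the log2 fold change was -0.33 (adjusted p = 0.00684). Knockout libraries 1 and 4 were also the lowest in the Leydig cell marker list, with a mean log2 deviation from the wild-type mean of -0.46 and -0.33, against -0.002 and -0.05 in knockout libraries 2 and 3. Of its 11 genes, 5 fell and 1 rose, and none was at 0 in all 8 libraries. Their CPM summed to between 839 and 1273 in the knockout libraries and to between 1232 and 1448 in the wild-type libraries. Within the Leydig list knockout library 1 was below library 4, while Catspere2 was lower in library 4. Libraries 1 and 4 were also the lowest knockout libraries in the macrophage and peritubular myoid lists, but not in the other marker lists. In knockout libraries 1 to 4 the macrophage deviations were -0.40, -0.02, 0.09 and -0.05, and the myoid deviations -0.28, -0.25, -0.21 and -0.47. The part of these lists in the Catspere2 values was not tested.

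Catspere1 and Catspere2 share sequence, with 25.1% of the 50-base windows of Catspere1 also in Catspere2 and 13.8% of those of Catspere2 in Catspere1. Summed into 1 row, the pair had a log2 fold change of -0.64 ± 0.11 (limma adjusted p = 0.00142). Ratios to the listed auxiliary subunits were taken after these calls were seen, and are given as a description with no test. Catspere1 over Catsperd was 0.342 ± 0.017 in the knockout libraries and 0.448 ± 0.026 in the wild-type libraries, and Catspere1 over Catsperg1 was 0.208 ± 0.005 in knockout and 0.289 ± 0.011 in wild-type libraries. Over Catsperb, Catsperd, Catsperg1 and Catsperg2 the log2 ratio was lower by between 0.39 and 0.48 for Catspere1 and by between 1.01 and 1.1 for Catspere2 in the knockout libraries, which restates the fall of the numerators beside uncalled denominators.

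**Figure D5:**
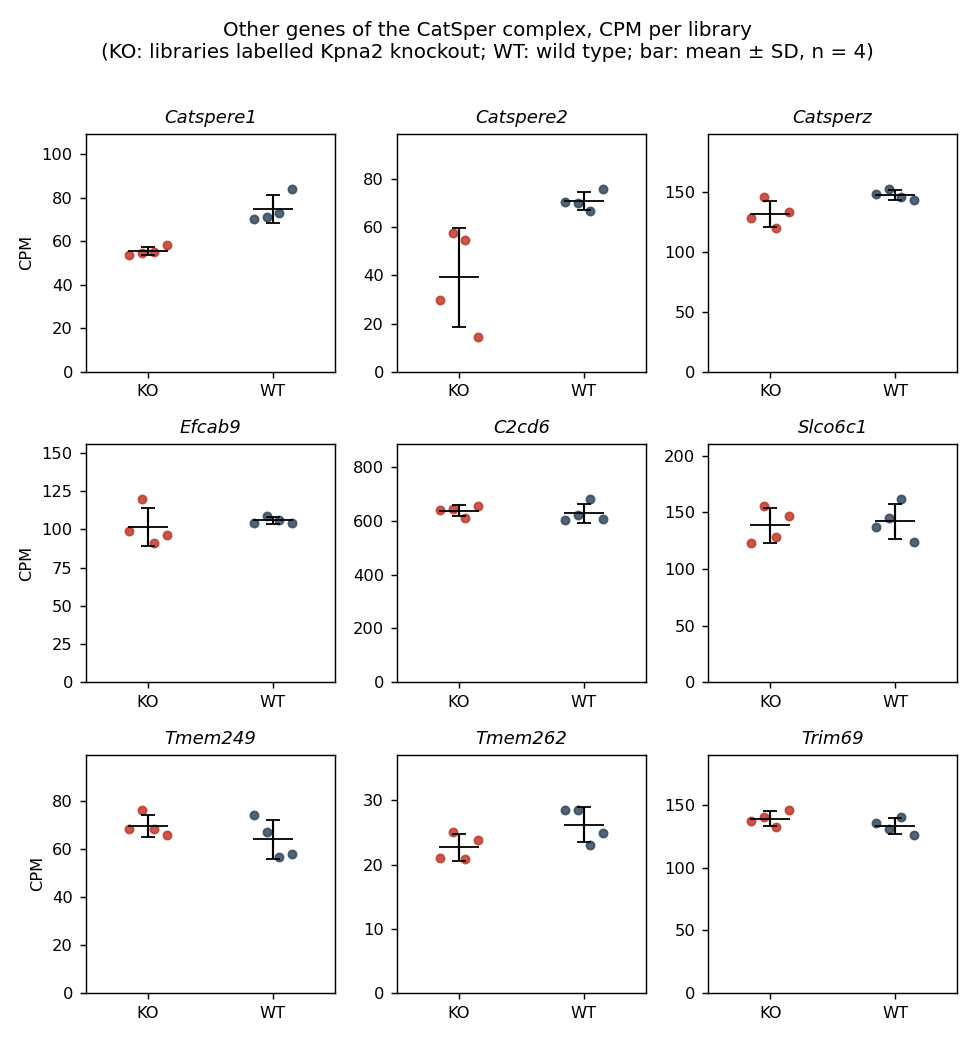
CPM (vertical axes, from 0) of the 9 other CatSper complex genes in the 4 libraries labelled Kpna2 knockout (KO, left in each panel) and the 4 wild-type libraries (WT, right), 1 point per library, with bars for mean ± SD. The groups are apart for Catspere1 (53.7 to 58.1 CPM in KO, 70.3 to 84.1 CPM in WT) and Catspere2 (14.6 to 57.5 CPM in KO, 66.6 to 75.97 CPM in WT) and overlap in the other 7.

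The remaining 7 genes were not called. Catsperz and Efcab9 encode the pair of small proteins through which calcium and pH tune the channel. Catsperz had 132 ± 10.8 CPM in the knockout libraries and 148 ± 4.06 CPM in the wild-type libraries, with a log2 fold change of -0.17 ± 0.06 (limma adjusted p = 0.0637) that passed in 2 of 20 alternatives, quantile normalization and the fit without knockout library 2. In GENCODE M21, 46.5% of its exon bases are also exons of Kcnk4 on the same strand, a gene at 1.52 CPM in the knockout libraries and 1.77 CPM in the wild-type libraries. Efcab9 stood at 102 ± 12.6 CPM in knockout and 106 ± 2.11 CPM in wild-type libraries (log2 fold change -0.07, adjusted p = 0.581). C2cd6, a C2-domain protein that carries the channel into the flagellum, had 637 ± 19.5 CPM in knockout and 628 ± 35.6 CPM in wild-type libraries (log2 fold change 0.02, adjusted p = 0.812). Slco6c1, a transporter found in the purified complex, had 138 ± 15.2 CPM in knockout and 142 ± 15.7 CPM in wild-type libraries (adjusted p = 0.82). Tmem249 and Tmem262 encode small membrane proteins. Tmem249 was at 69.8 ± 4.62 CPM in knockout and 64.1 ± 8.26 CPM in wild-type libraries (adjusted p = 0.312), and Tmem262 at 22.7 ± 2.1 CPM in knockout and 26.2 ± 2.74 CPM in wild-type libraries (adjusted p = 0.122). Trim69, a tripartite motif protein, had 139 ± 5.95 CPM in knockout and 133 ± 6.12 CPM in wild-type libraries (adjusted p = 0.458).

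Of 10 genes of other Slo family channels and their subunits, 6 passed the filter of a mean of at least 0.5 CPM, and 1 of the 6 fell, where 8.32% of all genes tested fell and 16.9% were called in either direction. Lrrc55, a leucine-rich repeat subunit of the large-conductance potassium channel, was at 1.87 ± 0.663 CPM in the knockout libraries and 3.29 ± 0.491 CPM in the wild-type libraries (log2 fold change -0.71 ± 0.18, limma adjusted p = 0.0146). It was called in 19 of 20 alternatives, the exception being the fit without wild-type library 2 (adjusted p = 0.0503). Kcnt1, a sodium-activated potassium channel, had 5.87 ± 0.182 CPM in knockout and 4.6 ± 0.793 CPM in wild-type libraries (log2 fold change 0.33 ± 0.12, adjusted p = 0.0629). Kcnma1 (4.96 CPM in knockout, 4.53 CPM in wild-type libraries), Lrrc26 (1.11 CPM in knockout, 1.246 CPM in wild-type libraries), Kcnmb3 (3.78 CPM in knockout, 3.66 CPM in wild-type libraries) and Kcnmb4 (16.5 CPM in knockout, 17.5 CPM in wild-type libraries) were not called. Kcnt2, Lrrc38, Kcnmb1 and Kcnmb2 were under the filter.

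Among 20 ion transporters and pumps of sperm, 17 were tested, of which 3 rose and 2 fell. Slc9c1, the sperm sodium-proton exchanger that alkalinises the cell interior, was at 134, 152, 141 and 154 CPM in the knockout libraries, against 114, 116, 122 and 98.2 CPM in the wild-type libraries. Its groups did not overlap, with a log2 fold change of 0.37 ± 0.07 (limma adjusted p = 0.0021). Kcnk5, a background potassium channel, rose to 24.5 ± 1.21 CPM, against 19.1 ± 1.05 CPM in the wild-type libraries (adjusted p = 0.00245). Atp1b3, a sodium pump subunit, rose to 398 ± 8.01 CPM, against 345 ± 5.63 CPM in the wild-type libraries (adjusted p = 0.00354). Car4, a membrane carbonic anhydrase, fell to 0.955 ± 0.311 CPM, against 2.07 ± 0.614 CPM in the wild-type libraries (adjusted p = 0.0117). Of 15 genes of sperm calcium and cAMP signalling, 1 rose and 1 fell. Adcy10, the bicarbonate-activated soluble adenylyl cyclase, was at 429.6 ± 27.1 CPM in the knockout libraries and 378 ± 14.4 CPM in the wild-type libraries (log2 fold change 0.18 ± 0.05, adjusted p = 0.0287). Plcz1, the sperm phospholipase that activates the egg, was at 236 ± 15.7 CPM in knockout and 272 ± 15.8 CPM in wild-type libraries (log2 fold change -0.20 ± 0.06, adjusted p = 0.0251). Set beside the 16.9% called among all genes, these shares are 5 of 17 and 2 of 15, and no list was tested as a set.

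Counts for marker lists of the tissue's cell types are read against the 8.32% of all genes tested that fell and the 8.62% that rose, and no list was tested as a set. Limma called 0 of 20 elongating spermatid, 0 of 21 round spermatid and 0 of 10 macrophage genes. It called 2 of 15 pachytene spermatocyte genes lower (Sycp1 and Cetn4) and 2 of 12 spermatogonial genes lower (Uchl1 and Dmrt1). Of somatic lists, 4 of 15 Sertoli genes fell (among them Defb36, Sox9 and Tsx), and 5 of 10 peritubular myoid genes fell (among them Acta2, Actg2 and Myh11). In the Leydig list Lhcgr and Star were among the 5 that fell, while Hsd3b1 rose, and of 10 endothelial genes 2 fell (Vwf and Tek).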

How the data were processed

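Total testis RNA was made into TruSeq RNA libraries, as the labels' protocols state. Trimmomatic, Subread, featureCounts and the builds GRCm39 and mm39 are named by the submitters' processing notes. No source used here gives the versions, the annotation, the strand setting or how reads with several matches were counted. The authors deposited 1 matrix of scaled signal, named CPM. Its numbered control and kpn columns were matched by number to the samples titled wild type and knockout. Column totals ran from 990244 to 1025489 and differed between libraries, so the values were treated as signal, while the log-scale test planned for CPM was kept. Dividing each column by its smallest value above 0 returned whole reads for 100% of values, within 0.01.

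The main test was limma 3.58.1 (R 4.3.3; trended eBayes) on log2(CPM + 0.5), with a filter at a mean of 0.5 CPM that left 22027 genes, two-sided, with Benjamini-Hochberg adjustment over all of them and a threshold of 0.05. Fold changes on this scale understate low genes. Single values had exact permutation tests over the 70 assignments of libraries (scipy 1.17.1). The alternatives were median-ratio and quantile scaling, centring on elongating spermatid markers, pseudocounts of 0.1 and 2, a stricter filter (2 CPM) or none, an untrended prior, a block for the replicate number, leaving out each library, summed copies, and edgeR 4.0.16 (quasi-likelihood, 3749 genes called) and DESeq2 1.42.0 (Wald) on the recovered reads. Chi-square per degree of freedom between replicates was 4.63 to 11.7, so no library was a duplicate. Intervals and floors cover counting error and the spread between libraries only.

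Named genes were all 10 channel genes, Kpna2, all other CatSper and Slo list genes, and of other lists the 3 called genes of smallest p with the first that went the other way. The genes and lists were chosen with earlier results of these data known. Symbols were found for 24890 identifiers. Coordinates, exons and transcript sequences are those of GENCODE M21 on GRCm38, another build than the authors used, and were not converted. No genome and no proteins were used here.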

Additional observations from a re-analysis of the deposited data

Results flagged for a closer look

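In 28 groups of 4 libraries (the 10 channel genes, Kpna2, Catspere1, Catspere2 and the Catsperg1 share, each in both genotypes), 2 held a library far from the other 3, and chance flags about 1 in 20 such groups. Catsperg1 was at 277 CPM in wild-type library 4, while the other wild-type libraries lay between 250.2 and 252.9 CPM and the knockout libraries between 256 and 274 CPM. Without that library the log2 fold change of Catsperg1 was the largest of those with 1 library left out, 0.08 (limma adjusted p = 0.29). Kcnu1 was at 97.7 CPM in wild-type library 2, with the other wild-type libraries between 90.05 and 90.9 CPM and the knockout libraries between 85.3 and 104 CPM.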

How the results depend on the processing

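None of the 10 channel genes was called under any of the 22 alternatives. Of 202 alternative values for them, with the summed Catsperg row counted for each copy, 196 kept their sign. The lowest adjusted p was 0.0542 (limma, Lrrc52 without knockout library 1). The 6 that reversed were near 0: Catsper4 at 0.0126 without knockout libraries 1 and 4 together, and, with 1 library left out, Catsperd (range -0.062 to 0.00826, above 0 without knockout library 1), Catsperb (-0.0182 to 0.0586, below 0 without knockout library 2 or 4 or wild-type library 1) and Kcnu1 (-0.0135 to 0.0819, below 0 without knockout library 2). Signs also reversed for C2cd6 (-0.0011 with quantile normalization, -0.0016 without knockout libraries 1 and 4), Slco6c1 (-0.0986 to 0.0289, above 0 without knockout library 1 or wild-type library 3) and Kcnmb3 (-0.0208 to 0.0784, below 0 without knockout library 2). The Catsperg1 share differed by -0.337 to 0.283 percentage points with 1 library left out. The call of Catspere2 was lost without knockout library 1 or any 1 wild-type library (adjusted p at most 0.0751) and with no variance trend (0.102). Leaving out knockout library 4 gave it -0.63 (adjusted p = 0.0238). Kcnt1 passed with quantile normalization (0.0478) and without wild-type library 1 (0.0245). In the other CatSper, transporter, Slo and signalling lists together, 10 genes were called, with the marker lists not counted. That number was 6 with no variance trend and 6 to 11 with 1 library left out, the lowest without wild-type library 2. Over all genes 3731 were called, 2791 to 3571 with 1 library left out and 2422 with knockout libraries 1 and 4 left out, where fewer libraries were fitted. The causes of the other changes were not tested.

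Deviations of same-numbered libraries from their group means had correlations of -0.042 to 0.076, and those of differently numbered libraries -0.084 to 0.085. Such correlations cannot show whether the numbers pair the libraries, and no label says that they do. With the replicate number as a block, 3446 genes and 0 of the 10 channel genes were called. In the other CatSper, transporter, Slo and signalling lists together, 8 genes were called. Kpna2 stayed at 0.44, and the Catsperg1 share difference was -0.093 points (exact sign-flip p = 0.875).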

Other observations

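Genes near the channel genes were listed after the values were seen. Within 1 Mb in GRCm38, 32 of 79 tested neighbours of Catsperg2 were called (40.5%), 19 of them lower in the libraries labelled knockout, as were 17 of 52 neighbours of Catsper4 (32.7%), against 16.9% of all genes. Around Catsperg1, whose window overlaps that of Catsperg2 and shares called genes with it, 16 of 68 were called (23.5%). For Catsper2 the number was 13 of 47 (27.7%). Around Lrrc52, 1 of 12 was called, and around Catsper1 12 of 112 (10.7%). The shares were 17.1% for Catsper3, 12.1% for Kcnu1, 12% for Catsperb and 8.93% for Catsperd. The nearest called gene to a channel gene was Cnksr1, a scaffold of Ras signalling, 658 bases from Catsper4, at 2.65 ± 0.444 CPM in the knockout libraries and 7.78 ± 1.06 CPM in the wild-type libraries (log2 fold change -1.39 ± 0.13, limma adjusted p = 5.8e-06), beside the uncalled -0.04 of Catsper4. Star, the cholesterol carrier of steroid-producing cells, lies 33641 bases from Kcnu1 and was at 47.4 ± 20.9 CPM in the knockout libraries and 116 ± 27.9 CPM in the wild-type libraries (limma adjusted p = 0.0019).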
